A study of Drosophila melanogaster with 4 samples.

Results

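Chromatin immunoprecipitation of Scute in fly embryos gave 2006 peaks on the main chromosome arms, and 860 of them lay in small groups of 2 to 4 peaks. These 860 were chosen by position alone. The whole list held 2136 peaks. Peaks on chromosome 4 and on the unplaced sequences U and Uextra were dropped, which left the 2006 peaks on the 5 main arms X, 2L, 2R, 3L and 3R. Peaks were then linked into a group wherever the midpoints of neighbours were at most 10 kb apart. The 860 peaks, 42.9% of those on the main arms (95% interval 40.7 to 45.1), formed 339 groups. The comparison was made with 578 single peaks, which had no neighbour within that distance, and with 568 peaks in 79 larger groups of 5 or more.

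Scute belongs to the basic helix-loop-helix family of transcription factors and is encoded in the achaete-scute complex. As a proneural factor it gives cells of the ectoderm the ability to become neural precursors, and it binds DNA at E-box sequences together with the partner protein Daughterless. It is also one of the X-linked proteins through which the dose of the X is read in sex determination. Developmental genes of the fly are often served by several separate enhancers, short stretches of DNA bound by such factors, and one enhancer can itself hold several binding sites. A list of peaks can therefore hold single bound stretches as well as several in one neighbourhood.

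The assay was ChIP-seq on Drosophila melanogaster embryos collected 0 to 12 h after egg laying and fixed with formaldehyde. Per the labels there were 2 ChIP libraries, made with crude serum of a guinea pig (polyclonal, raised to Scute), and 2 libraries of input DNA, the chromatin that was not immunoprecipitated. All 4 came from the strain given as Y cn bw sp. As alleles of every sample the labels name y[1] and oc[R3.2], next Gr22b[1], Gr22d[1] and cn[1] along with CG33964[R4.2], bw[1] and sp[1], and finally LysC[1] and lab[R4.2], together with MstProx[1], then GstD5[1] and Rh6[1]. Whole embryos mix all cell types and several stages, so a peak cannot be assigned to a tissue. The labels do not state the sex of the embryos, nor whether the 2 libraries of a kind came from separate collections.

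All 4 libraries were represented by 1 list that gives every peak its position and a score, and no value per library was at hand. Depth was thus unknown, and so was the spread between replicates. Peaks of 1 list are not replicates, so groups of peaks are described with intervals for counting error alone and without p-values. Whether a difference exceeds the spread between embryo collections was not tested. The score is read as −log10 of a p-value, and for 74.1% of the whole list (1582 peaks) it equalled, within 0.01, a Poisson tail at a background of 50.145 overlapping fragments. For these peaks the score gives the pileup, which is the number of overlapping fragments at the summit (uncertain by 1 fragment), and its fold over that background. Positions are those of FlyBase release 5. No genome or gene annotation of this release was used here, so the peaks are named by position and neither their genes nor their sequences are given.

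Pairs were the most frequent kind of small group. There were 201 groups of 2 peaks, 94 of 3 and 44 of 4, which held 402, 282 and 176 peaks. The 339 groups together spanned 1606 kb, of which the peaks themselves covered 326 kb or 20.3%. The median pair measured 2039 bp from the first base to the last (interval 1905 to 2471). A group of 3 measured 4254.5 bp (3608 to 5376) and a group of 4 measured 9113 bp (7144 to 11668). The size of a group adds to its span by construction.

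Small groups were a large part of the peaks on every main arm. On 2L they held 153 of 336 peaks (45.5%, interval 40.1 to 51.0), on 3L 198 of 439 (45.1%, 40.4 to 49.9) and on 2R 219 of 500 (43.8%, 39.4 to 48.3). The number was 240 of 586 on 3R (41.0%, 36.9 to 45.1) and 50 of 145 on the X (34.5%, 26.8 to 42.8). The 4 autosomal arms thus had overlapping intervals, and the X had the lowest share, with an interval that overlapped all 4. The arms differed more in the other classes. Single peaks made up 54.5% of X peaks and 21.0% of those on 2R, and larger groups made up 11.03% on the X and 35.2% on 2R.

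**Figure D1:**
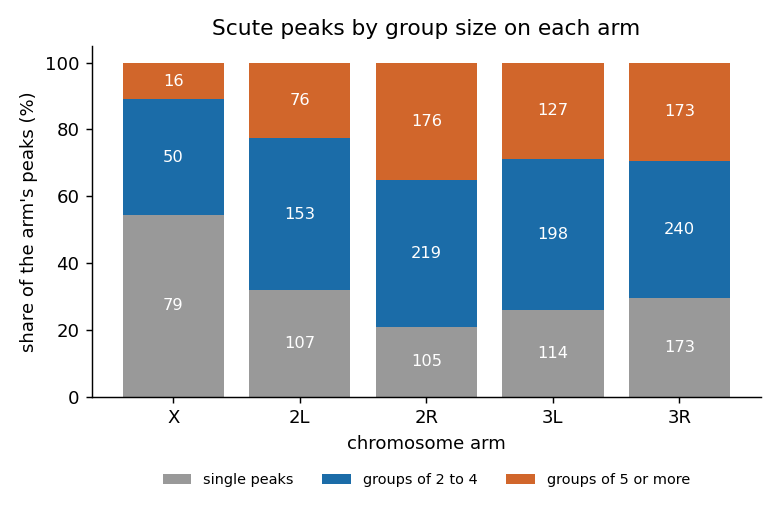
Share of each main arm's scute peaks (percent, vertical axis) that were single, in groups of 2 to 4, or in groups of 5 or more, with the number of peaks printed in each bar. The blue share ranged from 34.5% on the X to 45.5% on 2L, while the grey share of single peaks ranged from 21.0% on 2R to 54.5% on the X.

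Per length of arm, small groups were least frequent on the X. Between its first and last peak the X had 22 groups, or 1.04 per Mb. The density was 2.63 per Mb on 2L (59 groups), 3.32 on 3L (76), 3.37 on 3R (94) and 4.54 on 2R (88). Fewer peaks on an arm leave fewer to be linked, so this order also carries the density of all peaks. Along the arms the groups were spread widely. In windows of 1 Mb, 14 of the 45 windows on the X and 2L held no peak of a small group, against 2 of the 72 on 2R, 3L and 3R. The fullest windows were the first Mb of 2L with 22 such peaks followed on 2R by Mb 2 to 3 with 20. A further 4 windows held 19 each, at Mb 0 to 1 of 3L and of 3R, Mb 9 to 10 of 2R and Mb 25 to 26 of 3R.

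Neighbours inside the small groups were mostly much closer than the limit of 10 kb. The median distance between the midpoints of neighbouring peaks was 1.655 kb (interval 1.48 to 1.965) over 521 neighbouring pairs, with quartiles at 0.815 and 4.27 kb. At most 1 kb separated 165 of them (31.7%), 1 to 2 kb separated 120 (23.0%), 2 to 5 kb separated 128 (24.6%) and 5 to 10 kb separated 108 (20.7%). Larger groups had a median of 1.41 kb (1.29 to 1.58) over 489 neighbouring pairs. Their share at 5 to 10 kb was 13.7% (10.8 to 17.1), below the interval of the small groups (17.3 to 24.5), and their share at up to 1 kb was 37.0% (32.7 to 41.5). The limit itself shapes this contrast, because a run with short steps is more likely to reach 5 peaks. The closest midpoints in a small group were 266.5 bp apart, and edges came as close as 44 bp. In 148 of the 521 cases fewer than 500 bp lay between the edges of neighbours.

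**Figure D2:**
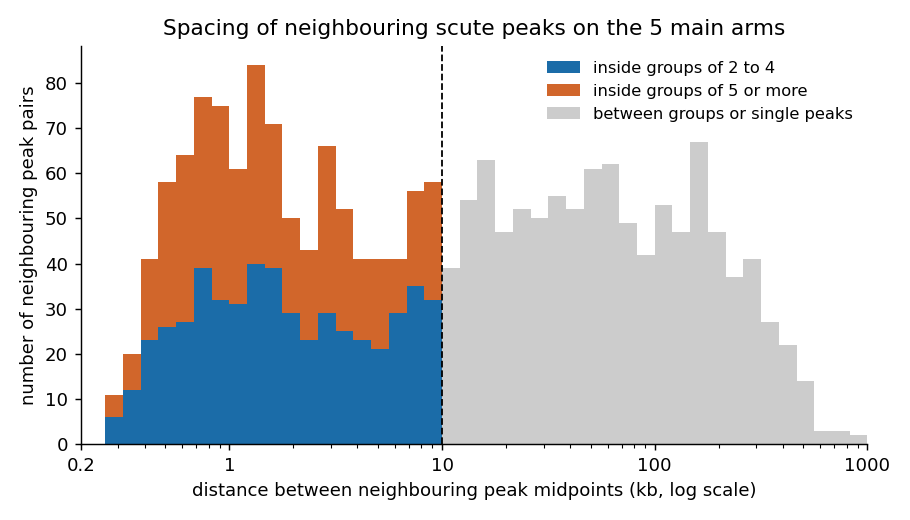
Number of neighbouring peak pairs on the main arms (vertical axis) by the distance between their midpoints (kb, horizontal log axis), with the 10 kb limit dashed. The 521 distances inside groups of 2 to 4 (blue) lie between 266.5 bp and 9.9945 kb, with a median of 1.655 kb, and grey marks distances beyond the limit.

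The spacing was similar on the 5 arms and in groups of each size. Its median ranged from 1.55 kb on 2L to 2.03 kb on 3L, with 1.65 kb on the X over 28 neighbouring pairs. It was 1.65 kb both in groups of 2 (interval 1.40 to 2.08) and in groups of 3 (1.36 to 1.965), and 2.01 kb in groups of 4 (1.28 to 2.89).

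Steps within groups of 3 and 4 differed in length. The longer of 2 steps exceeds the shorter by construction, and unrelated steps differ too. The linking rule also used these distances, so unevenness was described and not tested. In the 94 groups of 3 the longer of the 2 distances was a median of 2.29 times the shorter (interval 1.93 to 2.99), and in 54 of them it was at least 2 times as long. The shorter distance had a median of 0.941 kb and the longer one of 2.92 kb. In 25 groups of 3 a close pair at up to 1 kb had its remaining peak more than 2 kb away, whereas in 11 both distances were at most 1 kb. Of the 44 groups of 4, 25 contained a distance above 5 kb and 8 had all distances at 2 kb or less. The longest distance lay between the second and the third peak in 15 of the 44, as in 2 pairs set side by side, and at an end in the other 29. The middle is 1 of 3 places for it, so these counts are close to an even spread over the places.

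The tightest groups of 4 lay on 3R and 2R. On 3R, 4 peaks filled 2021 bp from 14069023 to 14071043, with midpoints 550, 580.5 and 608.5 bp apart and scores of 13.04, 19.94, 48.29 and 16.73 in that order. The third, 744 bp wide, had a pileup of 185 fragments or 3.69-fold over background, and the others had 110 to 128 fragments. This group is both the shortest of the groups of 4 and the one with the highest minimum score. Another group on 3R, 44.3 kb away, filled 2280 bp from 14022679 to 14024958 with scores from 9.74 to 17.12. On 2R the group from 8645535 to 8647877 filled 2343 bp, with scores from 9.06 to 15.37, none of which equalled a tail at the genome-wide background.

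The longest groups of 4 were all on 3R. The longest ran over 18.7 kb from 20890557 to 20909295 with steps of 8.01, 3.03 and 7.44 kb, and its scores stayed between 8.52 and 9.74. The next, from 5367270 to 5385987, held scores of 10.69, 13.42, 24.69 and 16.35 in order along the arm. In the third, from 17438849 to 17456284, a peak with a score of 25.59 stood among peaks of 7.67, 12.35 and 11.01. Both a tight and a long group thus held a single peak well above its neighbours.

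Peaks of small groups had scores much like those of other peaks. Their median score was 11.34 (interval 11.34 to 11.67), with quartiles at 9.57 and 14.47 and a range from 6.07 to 124.57. The median was 11.67 for single peaks (11.19 to 12.2) and 11.34 for peaks in larger groups (11.01 to 11.67), and the intervals overlapped. Within the small groups, medians were 11.34 in groups of 2, 11.67 in groups of 3 and 11.44 in groups of 4, also with overlapping intervals. By arm they ran from 11.01 on 3R to 11.825 on 3L. Just outside the size limit, the 110 peaks in groups of 5 had a median of 12.24 (11.34 to 13.04).

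**Figure D3:**
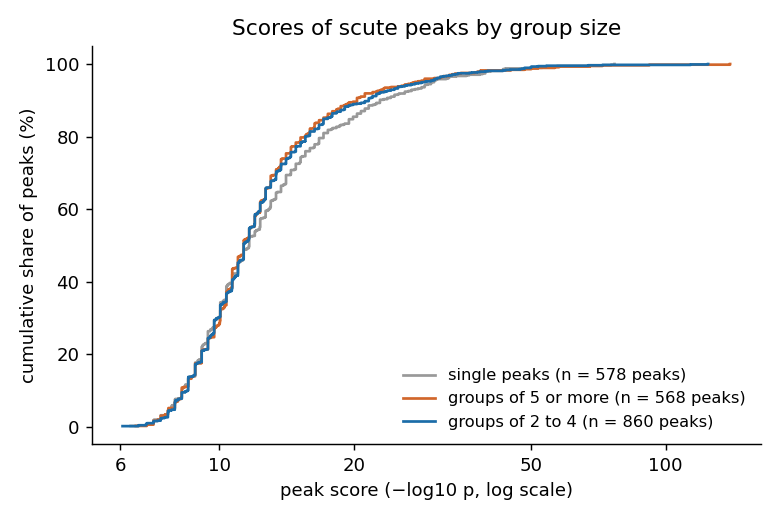
Cumulative share of peaks (percent, vertical axis) up to each score (−log10 p, horizontal log axis) for single peaks, groups of 5 or more and groups of 2 to 4. The curves of the grouped classes run together, with medians of 11.34, and the curve of single peaks, with a median of 11.67, runs lower over the upper part of its scores.

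High scores made up a slightly lower share of small groups than of single peaks, with overlapping intervals. The highest-scoring 25% of main-arm peaks had scores of at least 14.84 (504 peaks with ties). Small groups supplied 208 of these, which is 24.2% of their peaks (interval 21.4 to 27.2), against 29.1% of single peaks (25.4 to 32.95) and 22.5% of peaks in larger groups (19.2 to 26.2). Scores of 20 or more were held by 11.05% of peaks in small groups (9.03 to 13.3), 14.5% of single peaks (11.8 to 17.7) and 10.4% of peaks in larger groups (8.00 to 13.2). On the X, 26.0% of 50 peaks in small groups and 41.8% of 79 single peaks reached 14.84 (intervals 14.6 to 40.3 and 30.8 to 53.4). On 2R the shares were 25.1% of 219 and 33.3% of 105, on 3R 22.5% of 240 and 27.7% of 173, and on 3L 22.7% of 198 and 24.6% of 114. On 2L the order was turned, with 26.8% of 153 and 22.4% of 107. Of the 23 main-arm peaks with a score of 50 or more, 8 lay in small groups (0.930% of their peaks, interval 0.402 to 1.82). A further 7 were single (1.21%, 0.488 to 2.48) and 8 lay in larger groups (1.41%, 0.610 to 2.76).

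At least 1 peak of 14.84 or more was present in 172 of the 339 groups (50.7%), 2 or more in 32, and every peak reached it in 12. Such peaks made up 24.2% of the peaks in small groups and 25.1% of all main-arm peaks. A group has several peaks that can reach the score, so its share is higher than that of peaks by construction. Whether the counts differ from those of unrelated scores was not tested. The highest score of a group had a median of 13.44 in groups of 2 (interval 12.7 to 14.47), 15.81 in groups of 3 (15.21 to 17.8) and 17.91 in groups of 4 (15.37 to 21.62). The lowest had medians of 9.74, 9.43 and 9.13. A maximum over more peaks is higher and a minimum lower by construction, so these medians do not show stronger peaks in bigger groups. The ratio of the highest to the lowest score had a median of 1.57 over all groups (interval 1.47 to 1.68).

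The scores of neighbours were almost uncorrelated in small groups. Across the 521 neighbouring pairs of peaks Spearman's rho was −0.02 and Pearson's r on log10 scores −0.03, as a description only, since peaks share their libraries and pairs within a group share peaks. In larger groups rho was 0.03 and r 0.13 over 489 neighbouring pairs, and between neighbours more than 10 kb apart both were below 0.01 (rho 0.0019, r 0.0088, 991 neighbouring pairs). Of the 201 groups of 2, both scores were above the main-arm median of 11.34 in 44 (21.9%, interval 16.4 to 28.3), 1 was in 100 (49.8%) and neither was in 57 (28.4%). Scores equal to the median do not count as above it, which lowers the first of these counts and raises the last. Whether they differ from the counts of unrelated scores was not tested. The higher score came first along the arm in 100 pairs and second in 98, and 3 pairs had equal scores. In groups of 3 the highest peak was the middle one in 32 of 94 (34.0%, interval 24.6 to 44.5), the first in 31 and the last in 31. Where it was at an end, it belonged to the closer pair in 33 groups and stood apart from it in 29.

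In groups picked for a very high peak, the second-highest score was mostly near the scores of main-arm peaks in general. In the 8 groups whose highest score was 50 or more, the second-highest score ranged from 9.74 to 16.73 with a median of 12.175, and in 1 of the 8 it reached 14.84. In the 31 groups with a highest score from 30 to 50 its median was 12.07, and 9 of the 31 had a second peak of 14.84 or more. In the 51 groups from 20 to 30 the median was 12.52, and 15 of the 51 had such a second peak. The median of the second score thus stayed near 12 while the highest went from 20 to 124.57. Over all main-arm peaks the median score was 11.34, and 25.1% reached 14.84. Those values count each peak, whereas in groups of 3 or 4 the second score is the highest of several remaining peaks. It is raised there by construction, and pairs were only 6 of the 8, 17 of the 31 and 21 of the 51 groups. These groups were chosen by their highest score, so a lower second score follows in part from the choice. It is no trait shown for these groups. In the 249 groups with a highest score under 20 the second had a median of 10.05, where the highest score also caps the second.

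The highest peak in a small group lay on 3L from 7905104 to 7906937. It was 1834 bp wide with a score of 124.57, a pileup of 297 fragments and 5.92-fold over background, and it was the second-highest on the main arms. Its partner, from 7907137 to 7907437 and 1.27 kb away, had a score of 11.29. The second group was on 3R from 11923608 to 11927143. There a peak of 833 bp with a score of 113.86 and 283 fragments (5.64-fold) stood between peaks with 113 and 108 fragments (scores 14.11 and 12.35), 1.64 and 1.43 kb away. The main-arm median was 11.34, so the partner on 3L was close to it and the neighbours on 3R were above it.

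The arms 2L, 2R and X had their highest small groups at ranks 3, 5 and 6. On 2L, a peak from 6323898 to 6324593 with a score of 72.22 (224 fragments, 4.47-fold) had a neighbour of 11.65 at a distance of 1.03 kb. At rank 4, also on 2L, a peak from 4811206 to 4811972 with 67.05 had a neighbour of 11.34 at 762 bp. On 2R, a broad peak of 1785 bp from 11990359 to 11992143 with 54.11 (195 fragments, 3.89-fold) had one of 9.74 at 2.68 kb. On the X, a peak from 12548189 to 12548657 with 51.76 (191 fragments, 3.81-fold) had one of 12.7 at 5.09 kb. The pairs from 6323898, from 4810657 and on 3L from 7905104 also had the largest differences in score of all 201 pairs.

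At ranks 7, 9 and 10 a high peak likewise had a single neighbour below 14.84. On 3L, a peak from 11003419 to 11004151 with 50.01 stood beside one of 13.4, and on 2R a peak from 18157827 to 18158855 with 49.9 stood beside one of 13.49. On 2L, a peak from 2885949 to 2886782 with 48.29 stood beside one of 10.69. At rank 8, a group of 4 on 3R from 11619667 to 11627095 had scores along the arm of 50.01, 16.73, 10.69 and 11.67, 2 of which were above 14.84. The group of 4 on 3R from 14069023, described above, tied with rank 10 at 48.29 and had neighbours of up to 19.94.

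**Figure D4:**
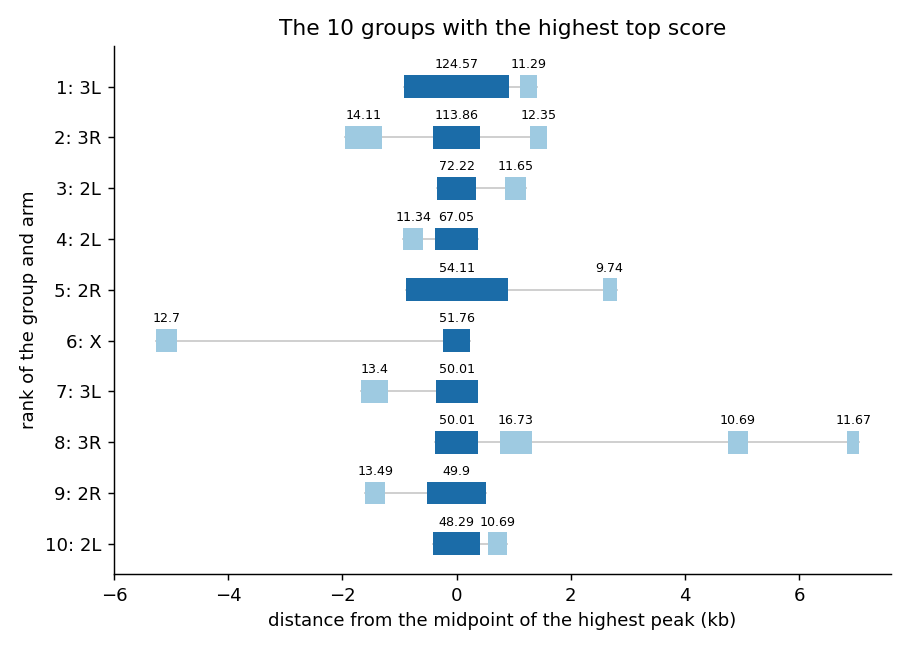
Peaks of the 10 small groups with the highest top score, 1 row per group, drawn to scale by distance from the midpoint of the highest peak (kb, horizontal axis) with the score of each peak printed above it. The highest peak (dark) scored 48.29 to 124.57 and the others (light) 9.74 to 16.73; a group on 3R tied with rank 10 at 48.29 is not drawn, and its other peaks scored 13.04, 19.94 and 16.73.

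Every peak reached 14.84 in 12 of the 339 groups. The pair with the highest minimum lay on 2R, with a peak of 28.89 from 18954767 to 18955189 and one of 26.91 from 18960947 to 18961649, 6.32 kb apart. On 2L, peaks of 39.45 and 22.48 lay 1.61 kb apart between 6722166 and 6724466 (169 and 134 fragments). On 3L, peaks of 33.25 and 20.35 lay 3.08 kb apart between 21469557 and 21473135 (157 and 129 fragments). Of the 201 pairs, 11 (5.5%) had both scores at 14.84 or more, while 23.1% of the peaks in pairs reached that score. With such a share, unrelated scores would also give few such pairs, and the count was not tested against that. They were 5 of 56 pairs on 2R, 3 of 32 on 2L, 2 of 39 on 3L and 1 of 57 on 3R. The X, with 17 pairs, had no such pair.

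Among the groups of 3, only the one on 2R from 7779860 to 7782133 had all peaks at 14.84 or more. Its scores were 16.73, 14.84 and 17.87 within 2274 bp, and its nearest other peak was 134 kb away. The group on 2R from 2019482 to 2021266 held scores of 15.59, 14.47 and 30.78 within 1785 bp, and the group on 3L from 17549502 to 17557693 held 13.08, 13.4 and 21.62. No group of 4 had all peaks at 14.84 or more, and 3 of the 44 had 3 such peaks. Behind the group on 3R from 14069023, the highest minimum among groups of 4 was 12.7 on 3R from 27899349 to 27903599 (15.59, 22.91, 12.74 and 12.7). It was followed by 12.01 on 3L from 2631956 to 2636432 (19.11, 12.01, 21.19 and 21.62).

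At the other extreme, 3 pairs had identical scores. On 3L, the peaks from 18892422 to 18892778 and from 18894199 to 18894404 both scored 8.83 (97 fragments). On 3R, the pair from 24428163 to 24429352 scored 11.67 on both sides (106 fragments), and the pair from 25516593 to 25517476 scored 11.34 (105 fragments). Ties were frequent: 704 of the 860 peaks shared their exact score with another peak of the small groups. Among the 633 whose score equalled a tail at the genome-wide background, 602 did. A whole-number pileup fixes the score of such a peak, so ties follow from the scoring. They were not counted in the other classes, so no trait of small groups is shown.

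Pairs 1 to 2 kb apart had the highest scores among the pairs. The higher peak of these 49 pairs had a median score of 17.91, against 13.22 in the 62 pairs at up to 1 kb, 12.35 in the 48 pairs at 2 to 5 kb and 14.47 in the 42 pairs at 5 to 10 kb. It reached 14.84 in 27 of 49 (55.1%), 21 of 62 (33.9%), 14 of 48 (29.2%) and 20 of 42 (47.6%). The shares did not go one way with distance. The lower peak had medians of 10.37, 9.74, 9.64 and 9.43 in the same order, so spacing classes differed mainly in the higher peak. Broad peaks cannot have midpoints close together, and width goes with score, which limits the class at up to 1 kb. The summed width of a pair had a median of 618.5 bp in that class and 728 bp at 1 to 2 kb. It was 651 bp at 2 to 5 kb and 625 bp at 5 to 10 kb. These distance classes were chosen after the values could be seen, and neither the difference nor the part of width in it was tested.

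Peaks in small groups were as narrow as those elsewhere. Their median width was 310 bp (interval 300.0 to 319, quartiles 243 and 430.25), against 306 bp for single peaks (296 to 316) and 320.5 bp in larger groups (308 to 337). Widths above 1000 bp were found for 16 of the 860 peaks (1.86%, interval 1.07 to 3.00), 4 of 578 single peaks (0.692%, 0.189 to 1.76) and 13 of 568 in larger groups (2.29%, 1.22 to 3.88). Of the 16, 9 were on 2R. The widest peak of all main arms, 1852 bp with a score of 43.24, lay on 2R from 19865402 to 19867253 in a group of 3. Its neighbours scored 9.43 and 11.63. Another of the 3 widest members lay on 2R from 9110200 to 9111997, 1798 bp wide with a score of 23.35, between peaks of 8.24 and 12.7. Width and score went together across the 860 peaks (Spearman's rho 0.59, a description) as they did among single peaks (0.61), and both are read from the same pileup.

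The height over background is read from the score, so its closeness to that of the other classes repeats that of the scores. For the 633 peaks in small groups whose score matched the genome-wide background, the median pileup was 106 fragments, 2.11-fold over background (interval 2.09 to 2.13, range 1.73 to 5.92). Single peaks had a median of 2.13-fold (2.09 to 2.17) and peaks in larger groups 2.11-fold (2.09 to 2.13). The share that matched was 73.6% in small groups (interval 70.5 to 76.5), 78.5% among single peaks (74.97 to 81.8) and 75.5% in larger groups (71.8 to 79.0). Of the 227 unmatched scores, 53 lay within 0.02 of a computed value, among them 30 that all read 8.52 where 8.53 was computed. The other 174 unmatched scores were farther off. Whether these came from a raised local background was not tested.

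The share that matched spread more widely over the arms than over the classes. In small groups it was 90.0% on the X (interval 78.2 to 96.7), 78.3% on 3R (72.6 to 83.4), and 76.5% on 2L (68.9 to 82.9). The lowest shares were 68.2% for 3L (61.2 to 74.6) and 67.6% for 2R (60.9 to 73.7). Single peaks had 92.4% on the X, 76.9% on 3R, 75.7% on 2L, 74.6% on 3L and 78.1% on 2R. On 2R the estimate for single peaks was above the interval of the small groups, though its own interval (69.0 to 85.6) overlapped it. All peaks matched in 167 of the 339 groups and none in 20. Among pairs, 79.0% of the 124 peaks at up to 1 kb matched (70.8 to 85.8) and 64.3% of the 84 peaks at 5 to 10 kb (53.1 to 74.4).

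Around the distance limit the scores were similar. The widest step inside a small group was 9994.5 bp, on 2R between peaks at 13480360 to 13480855 (score 16.73) and at 13490422 to 13490782 (9.43). The narrowest step outside was 10022.5 bp, also on 2R, between a single peak from 5464996 to 5465502 (10.37) and a peak from 5475153 to 5475390 (12.35) that belonged to a group of 3. On the main arms 30 steps measured 9 to 10 kb and 27 measured 10 to 11 kb. Of the 30, 13 were in small groups, and the 26 peaks beside them had a median score of 11.695. The 54 peaks beside the 27 steps had a median of 11.4. The plot of spacing shows no gap in the distances at the limit.

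Some small groups lay within 20 kb of another peak. The nearest peak outside a group was a median of 27.8 kb away (interval 24.0 to 34.9, range 10.02 to 555), and in 120 of the 339 groups (35.4%) it was within 20 kb. Single peaks had their nearest neighbour at a median of 32.9 kb (30.1 to 37.6), and their share within 20 kb was not counted. The linking rule sets all these distances above 10 kb, for groups and single peaks alike, so they are described and not tested. For groups of 2, 3 and 4 the medians were 30.3, 27.3 and 21.2 kb, with overlapping intervals. The group on 3R with the longest span lay 10.9 kb from its next peak, and the group of 4 on 3R from 11619667 lay 120 kb from it.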

How the data were processed

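The members, lists and comparisons here were chosen with earlier results of these data known. The deposited list uses FlyBase release 5 and names MACS as the source of its peaks, per the file headers. The submitters' processing notes name BDGP5, MACS2, BWA and CASAVA (1.7.0.2, 1.7.0.3). Not given in the sources used here are the peak threshold, the read filters, any pooling of replicates and how the input was used. The deposited score was read as −log10 of a p-value, from its values: Poisson upper tails of whole-number pileups were computed at background means from 5 to 150, and the mean with the most scores of the whole list within 0.01 was refined by least squares. Groups were built as stated above with Python 3.11.15, numpy 2.4.6, scipy 1.17.1 and pandas 2.3.3; plots used matplotlib 3.10.9. Shares have exact Clopper-Pearson intervals and medians exact binomial order-statistic intervals (95%), which take peaks as independent and cover counting error only. Depth per library is unknown. The background fit, the grouping and the intervals were tested on simulated data. Groups named are the 10 with the highest top score, the highest on each arm, the 3 of each size with the highest minimum, the 3 pairs each with the smallest and largest difference, the 3 shortest and 3 longest groups of 4, those with the 3 widest peaks, and the peaks beside the limit. The alternatives were other linking distances, the highest-scoring 50% of peaks, merged peaks, 1 value per group, each arm left out and other tolerances.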

Additional observations from a re-analysis of the deposited data

Results flagged for a closer look

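The 130 peaks on chromosome 4, U and Uextra entered no comparison, and 33 of them lay in 14 groups of 2 to 4 by the same linking. These were 14 peaks in 6 groups on U, 12 in 5 groups on Uextra and 7 in 3 groups on chromosome 4. These 33 grouped peaks had a median score of 13.36 and a highest score of 25.77. They are listed because they form a signal outside the sequences described above. Distances on U and Uextra need not be distances along a chromosome.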

How the results depend on the processing

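Of 78 values of 14 results under other settings, 57 stayed within the interval of the reported value or, for counts, within 1.5 times of it. With the highest-scoring 50% of peaks, small groups held 524 peaks in 209 groups, 48.9% of those entered. Their median score was 14.11, width 402 bp, match 81.5%, fold 2.25 and score ratio within groups 1.44, and the median score was 14.75 for single peaks and 13.795 in larger groups. Higher scores follow there from the selection. With peaks under 500 bp apart merged, the share in small groups was 45.3%, the median width 350.5 bp, the spacing 2.96 kb and the fold 2.15. Linking within 20 kb gave a share of 39.1% and a spacing of 2.24 kb, and linking within 5 kb a spacing of 1.33 kb. The highest peak of each group alone had a median score of 14.84, a width of 388 bp and a match of 79.6%, and matching within 0.02 gave 79.8%. No arm left out moved the median score, the width or the match beyond its interval. No paired analysis was possible because all libraries share 1 score per peak, and likewise no replicate could be left out. Depth per library is unknown, so its limit on weak peaks was not examined.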
